A study of Danio rerio with 8 samples.

Results

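This account concerns 34 genes of the cell cycle and of DNA replication, taken by symbol from a count table of 25279 genes. By role they comprised 11 replication genes, 18 mitosis genes and 5 further genes that mark dividing cells. The table covered tail muscle with its intermuscular bones from zebrafish at 60 days post fertilization (dpf). It held 3 bulk RNA libraries of wild type fish and 3 of runx2b-/- fish, and both genotypes carried the Tg (sp7/eGFP) transgene, a reporter driven by an osteoblast gene. The comparison asked how this tissue differs in fish that lack runx2b, 1 of the zebrafish genes for the osteoblast transcription factor Runx2. How many fish went into a library, their sex and whether the libraries of a genotype are from different fish is not stated in the sources used here. The p-values therefore cover the spread among these libraries, which may be technical.

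Cells that prepare to divide switch on DNA replication genes before and during S phase and mitosis genes from late S phase onward. The Mcm2 to Mcm7 proteins form the ring-shaped helicase loaded at replication origins, and PCNA is the sliding clamp that holds DNA polymerase on its template. Cyclin B with Cdk1 drives entry into mitosis, and Cdc20 with the anaphase-promoting complex ends it by destroying cyclin B. Mature muscle fibres do not divide, so in muscle such transcripts are expected mainly from the minority of cells that still cycle. Which cells they came from was not measured here. In bulk RNA, fewer dividing cells and less of these transcripts per cell cannot be told apart. Growing oocytes also store many cell cycle transcripts for the embryo.

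Each library held between 17280098 and 20482003 counts in total. Levels are given as counts per 1e+06 counts (CPM), and 3 counts were worth 0.134 to 0.181 CPM. runx2b itself had 2, 2 and 6 counts in wild type and 4, 2 and 6 in mutant, too few to check the genotype labels. All 11 fast muscle markers passed the count filter, with 220115 to 392145 CPM in sum per library, so the markers of the labelled muscle were present. The bone markers were sparse, with 42.5, 43.1 and 60.2 CPM in sum in wild type libraries 1 to 3. In mutant libraries 1 to 3 their sums were lower, at 10.5, 17.1 and 16.4 CPM. Most of this difference lay in bglapl and col10a1a. Their means were 17.9 and 18.4 CPM in wild type and 2.12 and 1.51 CPM in mutant. The other bone markers had overlapping groups, among them phex with means of 7.64 and 7.45 CPM. The exception was sp7, with 4, 2 and 1 counts in wild type and 0 in each mutant library. Wild type libraries 1 and 2 held oocyte transcripts at higher levels than the other 4 libraries, with values given below.

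Most cell cycle genes stood lower in the mutant group on average, and none was called. Of the 34 members, 30 passed the count filter and were tested. By edgeR's quasi-likelihood test with Benjamini-Hochberg adjustment over 14107 genes, 0 members had an adjusted p under 0.05, where 3.37% of all tested genes were called. An unadjusted p under 0.05 was reached by 9 members, beside 19.4% of all tested genes. Of these, 8 were lower in the mutant, beside 9.41% of all tested genes, and 1 was higher, beside 9.96%. limma voom also called 0 members, beside 2.93% of all genes, and DESeq2 called 4 (ccne2, mcm5 and stmn1a lower, cenpf higher), beside 4.78%. Without a count filter edgeR called 5 of the 34, beside 4.59% of all genes, and with library size only it called 1, beside 2.56%. The log2 fold change, mutant minus wild type, was below 0 in 27 of the 30, with a median of -0.62 beside -0.0087 over all tested genes. The genotype groups did not overlap in 3 members, ccne2 and stmn1a with wild type higher and cenpf with mutant higher, and this held for 24.6% of all tested genes (11.7% with wild type higher and 12.8% with mutant higher).

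**Figure D1:**
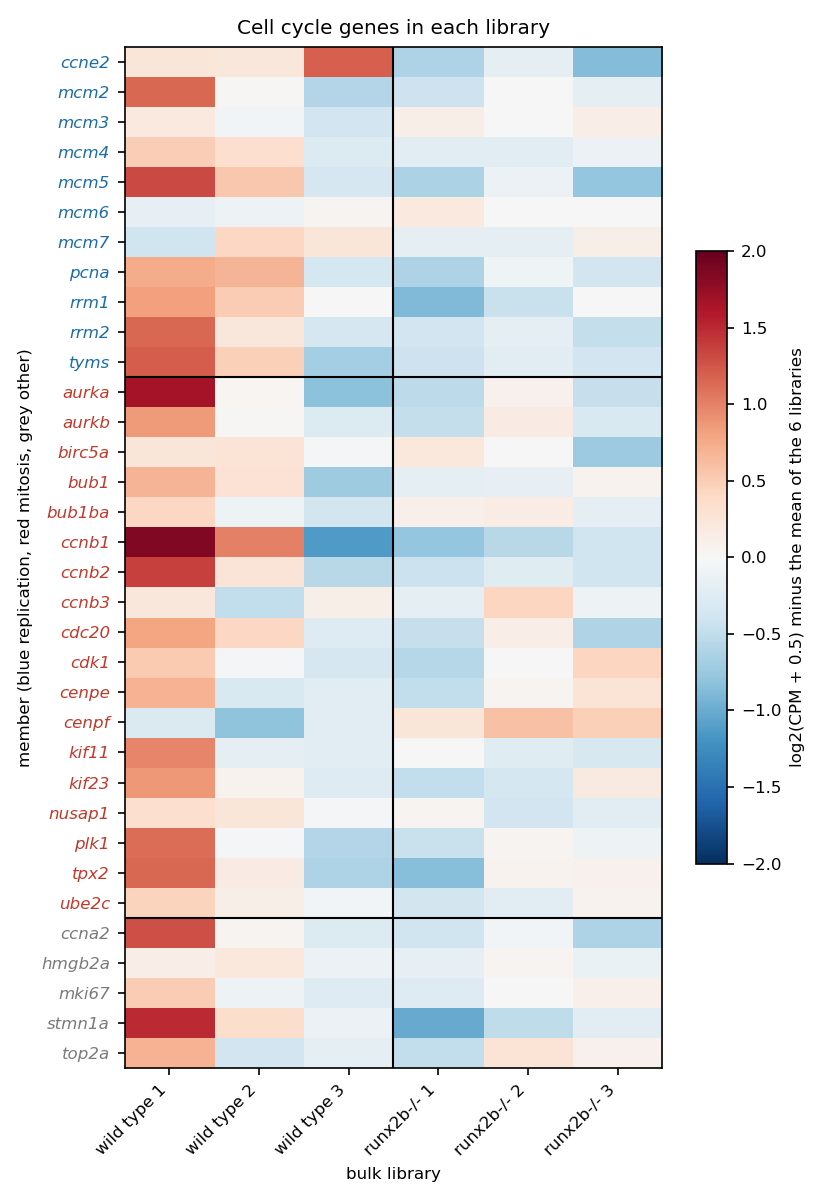
Level of each of the 34 members (rows, by role) in each bulk library (columns), as log2(CPM + 0.5) minus the mean of the 6 libraries. Wild type library 1 is the highest of the 6 in 27 members, and wild type library 3 resembles the mutant libraries in most rows.

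The clearest pattern lay within the wild type group. Wild type library 1 had the highest CPM of the 3 wild type libraries in 28 of 34 members, or 24 of the 30 tested, and this held for 36.8% of all tested genes. Wild type library 3 was the lowest of the 3 in 27 of 34 members, or 24 of the 30 tested, beside 35.4% of all tested genes. Across all 6 libraries, wild type library 1 was the highest in 24 of the 30 tested members, beside 21.8% of all tested genes. The median difference between wild type libraries 1 and 3 was 0.99 over the 34 members on the log2(CPM + 0.5) scale and 0.0048 over all tested genes. Comparisons of single libraries have no replicate check.

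The spread of the mutant libraries was narrower. The range from the lowest to the highest library had a median of 1.06 in wild type and 0.46 in mutant over the 34 members, as a log2 difference. In 26 of the 30 tested members the wild type range was the wider, beside 60.7% of all tested genes. How far the mutant mean lay below wild type therefore depended on the wild type library it was set against. Against wild type library 1 the median difference over the 34 members was -0.93, against library 2 it was -0.36, and against library 3 it was 0.058, with the mutant mean lower in 31, 26 and 13 members. The call counts depended on single libraries in the same way. Without wild type library 3, edgeR's test with Benjamini-Hochberg adjustment called 8 of 32 tested members, beside 8.25% of all tested genes. They were pcna, rrm1, rrm2, mcm5, tyms, ccnb1 and stmn1a, all lower in the mutant, and cenpf, higher. Of these, ccnb1 was not tested with all libraries. It passed the count filter here through wild type libraries 1 and 2, where it is high. Without wild type library 1 the same test called 1 member (cenpf, higher), beside 4.61% of all genes, and the log2 fold change was below 0 in 17 of 30. With wild type library 3 alone as wild type, it was below 0 in 13 of 31, and ccne2 was the 1 member called, beside 2.81% of all genes. That setting holds no spread within wild type, and the lone library is assumed to vary like the mutant libraries.

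**Figure D2:**
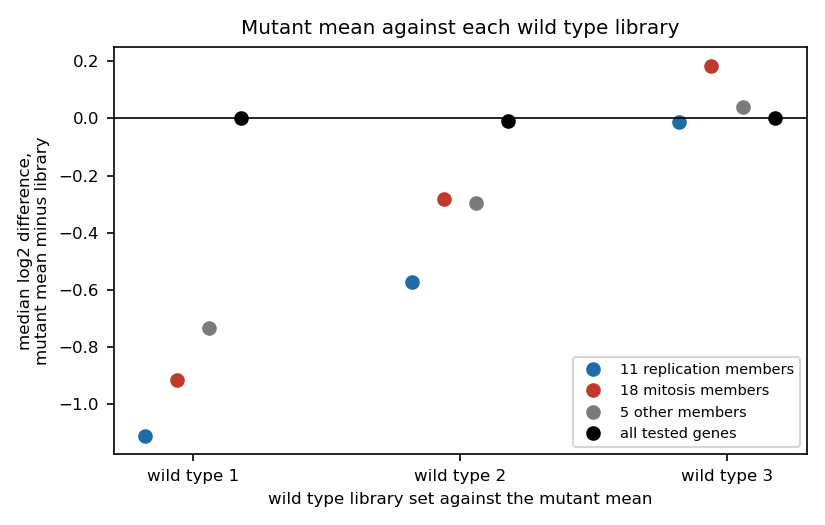
Median log2 difference between the mean of the 3 mutant libraries and each wild type library, on the log2(CPM + 0.5) scale, for the replication, mitosis and other members and for all tested genes. The member medians are lowest against wild type library 1. Against wild type library 3 they are -0.014 in replication, 0.18 in mitosis and 0.039 in other members. Those of all genes lie near 0 throughout.

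Transcripts of most oocyte and germ cell markers moved with the members across the wild type libraries. buc, which organizes the Balbiani body of the fish oocyte, had 145, 62 and 1 counts in wild type libraries 1 to 3, beside 3, 0 and 2 in mutant libraries 1 to 3. The maternal gene zar1 had 56, 24 and 0 counts in wild type and 1, 3 and 1 in mutant, and nanog had 32, 14 and 0 in wild type and 0 in every mutant library. The germ cell helicase gene ddx4 had 46, 7 and 0 counts in wild type and 0, 2 and 0 in mutant. The marker bmp15 differed, with 4, 7 and 2 counts in wild type and 1, 2 and 0 in mutant. Wild type library 1 was the highest of its group in 8 of 12 germ line markers, beside 36.8% of all tested genes. Wild type library 3 was the lowest of its group in all 12, beside 35.4%. Of 12 germ line markers, 0 were at a count of 0 in wild type libraries 1 and 2, 8 were in wild type library 3, and 6, 6 and 9 were in mutant libraries 1 to 3. The 11 markers other than the yolk precursor gene vtg1 summed to 16.5, 7.56 and 0.342 CPM in wild type and to 0.419, 0.786 and 0.218 CPM in mutant. vtg1, a liver product of egg-laying females, had 264, 253 and 163 counts in wild type and 1, 3 and 0 in mutant. It was the 1 tested of the 12 markers and was called lower, where 3.37% of all tested genes were called. Its log2 fold change was -7.15 (SE 0.42, edgeR adjusted p = 1.45e-06), with no overlap between groups. vtg1 passed the count filter through the wild type group, where it is high, and its model overlaps vtg4 and vtg7 on the same strand. Wild type library 3 had 6 counts over the other 11 markers. The sex of the fish is not stated, and its part in these values was not tested.

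Muscle progenitor markers also differed among libraries, and not all in the same way. The myogenic factor gene myod1 stood at 7.59, 12.7 and 3.03 CPM in wild type libraries 1 to 3 and at 3.03, 4.23 and 6.11 CPM in mutant libraries 1 to 3. myog, the gene of the differentiation factor myogenin, stood at 6.08, 5.87 and 1.37 CPM in wild type and at 1.35, 2.42 and 3.60 CPM in mutant. Of the 8 progenitor markers, 7 were tested and 1 was called, a share of 14.3% beside 3.37% of all tested genes. This was cdh15, the gene of M-cadherin, which rose from 4.33, 2.21 and 3.71 CPM in wild type to 9.69, 8.40 and 9.11 CPM in mutant (log2 fold change 1.41, SE 0.23, edgeR adjusted p = 0.0079). That call ended without mutant library 1 (edgeR adjusted p = 0.0588) or mutant library 3 (edgeR adjusted p = 0.0515). The satellite cell gene pax7a (0.08, SE 0.29) and the receptor gene met (0.63, SE 0.48) had overlapping groups. So did 4 markers that were lower in the mutant. These were pax7b (-1.23, SE 0.45, edgeR adjusted p = 0.161), myf5 (-0.61, SE 0.34), myod1 (-0.81, SE 0.54) and myog (-0.88, SE 0.61). Over the 7 tested markers the median log2 fold change was -0.61, beside -0.0087 over all tested genes. Below the filter, mymk had 5, 5 and 2 counts in wild type and 1, 3 and 1 in mutant. The 8 markers summed to 25.2, 25.7 and 13.1 CPM in wild type and to 18.3, 21.1 and 22.4 CPM in mutant. Wild type library 3 was the lowest of the 6 for this sum. Without cdh15 the sums were 20.9, 23.5 and 9.36 CPM in wild type and 8.62, 12.7 and 13.3 CPM in mutant, with mutant library 1 the lowest. Other marker lists differed too. edgeR called 4 of 11 tested red blood cell and 2 of 8 endothelium markers higher, beside 3.37% of all tested genes. It called 2 of 3 neutrophil, 1 of 8 macrophage, 1 of 5 epidermis and 0 of 2 lymphocyte markers lower. The 2 neutrophil markers passed the filter through the wild type group, where they are high. Epidermis markers summed to 67.7, 114 and 194 CPM in wild type and to 109, 87.3 and 92.7 CPM in mutant. The part that transcripts of these cell types, oocytes and progenitors have in the members' values was not tested.

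**Figure D3:**
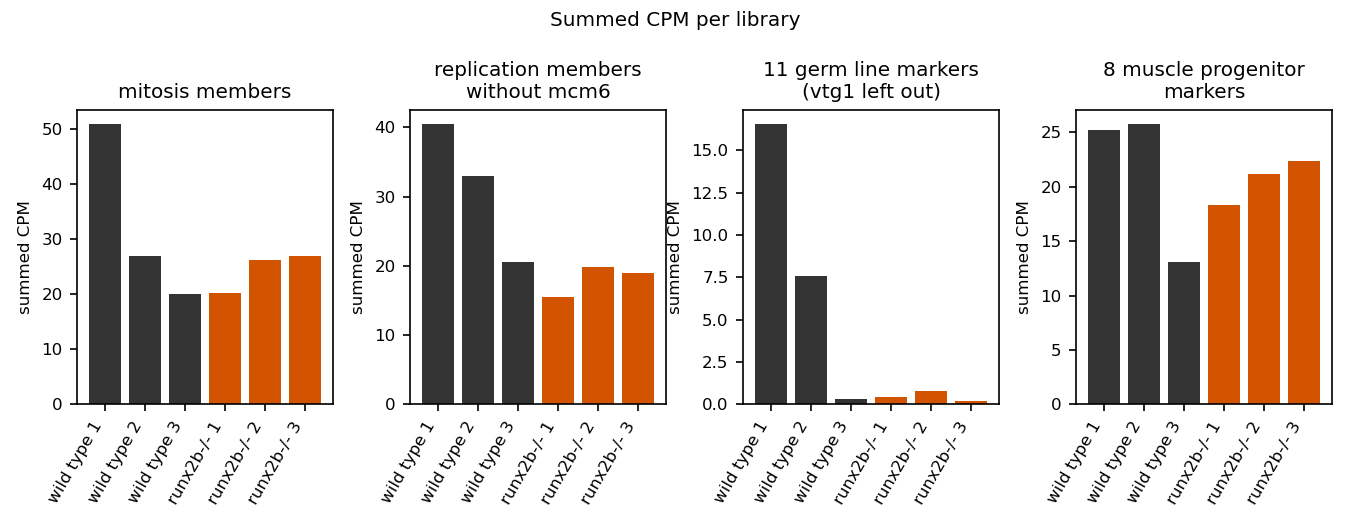
Summed CPM in each library (bars; 3 wild type, then 3 runx2b-/-) of the mitosis members, the replication members without mcm6, 11 germ line markers and 8 muscle progenitor markers. Germ line markers stand at 16.5 and 7.56 CPM in wild type libraries 1 and 2 and below 1 CPM elsewhere. The mitosis members are highest in wild type library 1, at 50.9 CPM.

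Of the 11 replication members, 9 had a log2 fold change below 0. pcna (chromosome 10, 40900618 to 40905471 as the table gives it) stood at 12.5, 11.9 and 5.59 CPM in wild type libraries 1 to 3 and at 4.57, 6.77 and 5.46 CPM in mutant libraries 1 to 3. Wild type libraries 1 and 2 lay above every mutant library, and wild type library 3 lay among them. The means were 10.0 ± 3.83 and 5.60 ± 1.11 CPM (SD, n = 3 each), a log2 fold change of -0.85 (SE 0.29, edgeR adjusted p = 0.144). rrm1, the large subunit of the ribonucleotide reductase that makes deoxynucleotides (chromosome 21, 30735348 to 30750719), stood at 4.65, 3.62 and 2.40 CPM in wild type and at 1.07, 1.63 and 2.40 CPM in mutant. Its groups met at wild type library 3 and mutant library 3, and its log2 fold change was -1.08 (SE 0.33, edgeR adjusted p = 0.0942).

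The small reductase subunit gene rrm2 had 105, 48 and 24 counts in wild type and 28, 26 and 22 in mutant (log2 fold change -1.05, SE 0.41, edgeR adjusted p = 0.187). The table merges parts on 2 chromosomes under this symbol, so no position is given and its value is uncertain. tyms, the thymidylate synthase gene, stood at 3.48, 1.88 and 0.571 CPM in wild type and at 0.792, 0.967 and 0.818 CPM in mutant (-1.23, SE 0.54, edgeR adjusted p = 0.250). In both genes wild type library 1 was the highest library, and wild type library 3 lay within or below the mutant range. With wild type library 3 alone as wild type the log2 fold change of tyms was 0.56, the opposite sign.

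ccne2, 1 of the genes of cyclin E, which starts S phase with Cdk2, departed from this order (chromosome 16, 40625710 to 40635748). It had 13, 12 and 28 counts in wild type and 2, 5 and 0 in mutant, so its highest library was wild type library 3 and the groups did not overlap. At 0.914 ± 0.593 against 0.132 ± 0.155 CPM, its log2 fold change was -2.77 (SE 0.77, edgeR adjusted p = 0.0749). It passed the count filter through the wild type group, where it is high. The adjusted p ran from 0.00393 without a count filter to 0.287 over the alternatives, with the log2 fold change between -4.01 and -2.13.

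**Figure D4:**
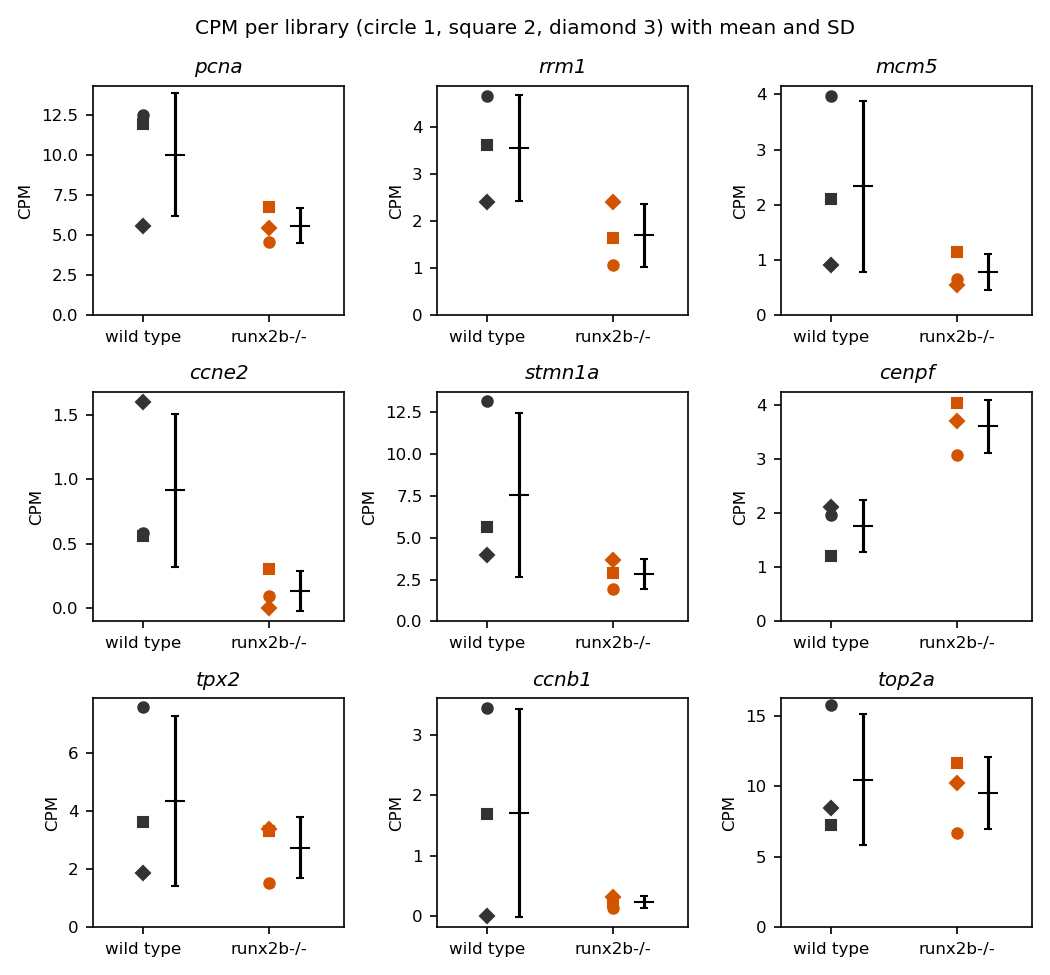
CPM of 9 members in each library (circle, square and diamond for libraries 1, 2 and 3; dark wild type, orange runx2b-/-) with the group mean and SD beside them. Wild type library 1 lies highest in pcna, rrm1, mcm5, stmn1a, tpx2, ccnb1 and top2a, while ccne2 is highest in wild type library 3 and cenpf is higher in the 3 mutant libraries.

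The genes of the Mcm helicase did not share 1 order of libraries. mcm5 (table position chromosome 3, 25868606 to 25880569) stood at 3.98, 2.11 and 0.913 CPM in wild type libraries 1 to 3 and at 0.653, 1.15 and 0.546 CPM in mutant libraries 1 to 3 (a log2 difference of -1.61, SE 0.52, edgeR adjusted p = 0.126). mcm2 stood at 4.56, 1.83 and 1.03 CPM in wild type and at 1.21, 1.81 and 1.53 CPM in mutant (-0.73, SE 0.49), and mcm4 at 1.52, 1.31 and 0.685 against 0.746, 0.725 and 0.818 CPM (-0.63, SE 0.37). In these 3 genes and in mcm3 (0.25, SE 0.41) wild type library 1 was the highest of the 6 and wild type library 3 the lowest of its group. mcm7 stood at 3.71, 6.85 and 6.05 CPM in wild type and at 4.33, 4.35 and 5.51 CPM in mutant (-0.22, SE 0.24), with wild type library 1 the lowest of the 6.

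mcm6 stood at 34.1, 35.7 and 40.0 CPM in wild type and at 44.0, 38.7 and 38.6 CPM in mutant (log2 fold change 0.14, SE 0.15), and wild type library 1 was again the lowest. Per kilobase of gene model it reached 10.1 ± 0.848 CPM in wild type, beside 0.181 to 2.17 CPM for the means of the other 5 subunit genes. This value is uncertain. The model of mcm6 (chromosome 6, 12733207 to 12755502) shares 357 exon bases with si:ch73-71c20.5 on the same strand, and that gene had 97.4% to 105% as many counts as mcm6 in each library. Reads of the 2 models could not be told apart in this table. The related gene mcm6l, which is not a member, had 25, 7 and 1 counts in wild type and 0 in each mutant library. A fall in order from wild type library 1 to 3, as here, was seen in 22 of the 30 tested members, beside 21.75% of all tested genes.

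Mitosis genes for kinases and cyclins were low and uneven among wild type libraries. cdk1, the catalytic partner of cyclin B, stood at 1.97, 1.17 and 0.856 CPM in wild type libraries 1 to 3. In mutant libraries 1 to 3 it stood at 0.653, 1.21 and 1.80 CPM (log2 fold change -0.16, SE 0.42), and the groups overlapped. aurka, a kinase gene of the spindle poles, had 59, 11 and 1 counts in wild type and 4, 9 and 4 in mutant. Its log2 fold change of -1.83 (SE 1.16) came with an edgeR adjusted p of 0.456 and was 0.012 without wild type library 1. aurkb (-0.90, SE 0.55), of the chromosomal passenger complex, and plk1 (-0.87, SE 0.63), a kinase gene of mitotic entry, were likewise highest in wild type library 1.

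The cyclin A and cyclin B members lay below the count filter. ccnb1 had 77, 36 and 0 counts in wild type and 3, 4 and 6 in mutant, and ccnb2 had 31, 8 and 0 against 1, 2 and 1. ccna2, the cyclin A gene of S and G2 phase, had 45, 12 and 6 counts in wild type and 6, 8 and 3 in mutant. The ratio of mutant to wild type, scaled for depth, was 0.125 for ccnb1 (95% exact binomial interval 0.0646 to 0.223), 0.111 for ccnb2 (0.0289 to 0.309) and 0.293 for ccna2 (0.161 to 0.507). Those intervals cover counting error only, and the wild type libraries differed far more: ccnb1 and ccnb2 were at 0 in wild type library 3, where 0 counts allow up to 0.171 CPM. ccnb3 had 9, 1 and 6 counts in wild type and 4, 9 and 4 in mutant, a ratio of 1.15 (0.549 to 2.44). Without a count filter, edgeR's test covered these cyclin genes with the spread among libraries and did not call any of them.

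The most abundant mitosis members by mean CPM were cenpe, nusap1, tpx2 and ube2c. cenpe, a kinetochore motor gene (chromosome 1, 264860 to 300878), stood at 8.71, 4.08 and 4.34 CPM in wild type libraries 1 to 3 and at 3.54, 5.38 and 6.33 CPM in mutant libraries 1 to 3 (log2 fold change -0.18, SE 0.32). tpx2, a spindle assembly factor gene (chromosome 23, 32102043 to 32111690), stood at 7.59, 3.62 and 1.88 CPM in wild type and at 1.54, 3.32 and 3.38 CPM in mutant (-0.69, SE 0.54). In both, wild type library 1 lay above the other 5 libraries, which overlapped.

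nusap1, a spindle microtubule gene, stood at 4.69, 4.37 and 3.48 CPM in wild type and at 3.78, 2.66 and 3.06 CPM in mutant (log2 fold change -0.40, SE 0.22). Of its exon bases, 24.8% lie opposite ndufaf1, which had 425 to 769 counts beside 44 to 105 of nusap1. Without a stated strand setting the share of those reads in nusap1 is uncertain. ube2c, the ubiquitin-conjugating enzyme gene of the anaphase-promoting complex, stood at 3.98, 3.05 and 2.68 CPM in wild type and at 2.05, 2.36 and 2.95 CPM in mutant (-0.41, SE 0.24). Its activator gene cdc20 had 28, 18 and 6 counts in wild type and 5, 10 and 3 in mutant (-1.34, SE 0.58, edgeR adjusted p = 0.230). The motor genes kif11 (-0.60, SE 0.38) and kif23 (-0.74, SE 0.44), the checkpoint genes bub1 (-0.54, SE 0.55) and bub1ba (-0.014, SE 0.51) and the survivin gene birc5a (-0.60, SE 0.59) had changes within about 2 standard errors of 0.

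cenpf, a large kinetochore protein gene, was the tested mitosis member that stood higher in the mutant (chromosome 17, 32768107 to 32790619). It had 1.97, 1.22 and 2.11 CPM in wild type libraries 1 to 3 and 3.08, 4.05 and 3.71 CPM in mutant libraries 1 to 3. The groups did not overlap, and wild type library 1 was not the highest of its group. The means were 1.77 ± 0.478 and 3.61 ± 0.494 CPM, a log2 fold change of 1.03 (SE 0.26, edgeR adjusted p = 0.0516). The adjusted p ran from 0.0106 without a count filter to 0.297 over the alternatives, and the log2 fold change from 0.75 to 1.18. Its model of 10795 bases is the longest among the members. With an offset for gene length its log2 fold change was 0.78 (edgeR adjusted p = 0.131).

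**Figure D5:**
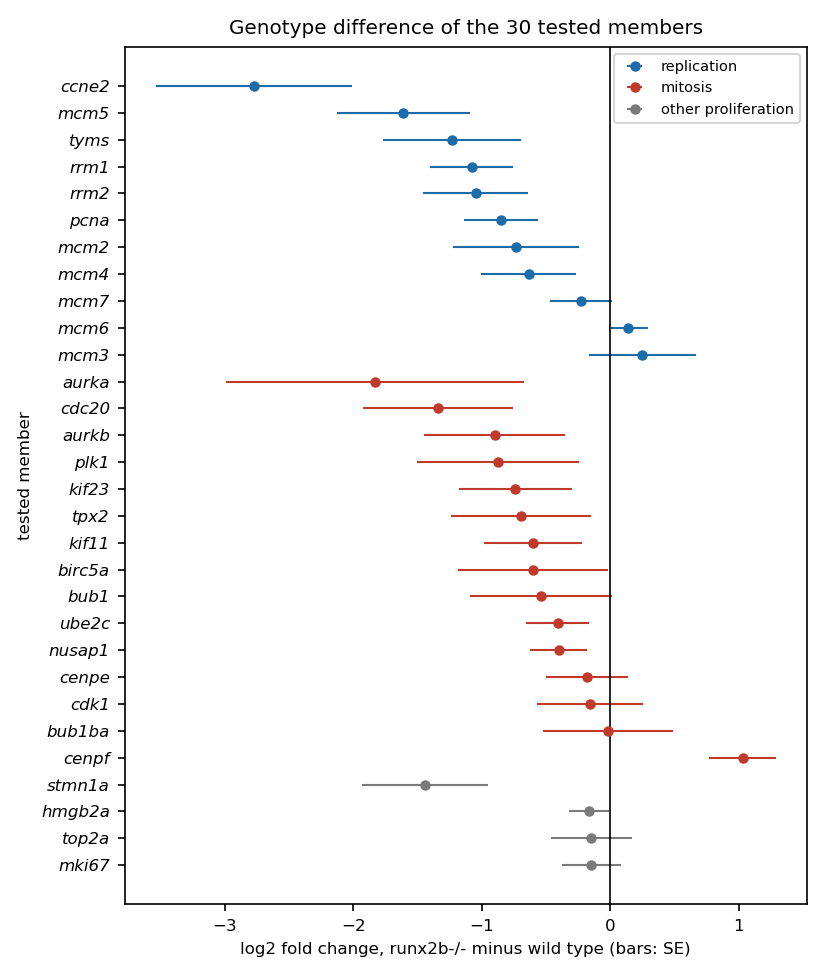
Log2 fold change (runx2b-/- minus wild type, points) with its SE (bars) for the 30 tested members, by role. Replication members range from -2.77 (ccne2) to 0.25 (mcm3), and cenpf at 1.03 is the mitosis member to the right of 0.

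The 5 further markers of dividing cells included the most abundant member. hmgb2a, a chromatin protein gene (chromosome 1, 37450334 to 37452609), stood at 111, 118 and 93.0 CPM in wild type libraries 1 to 3 and at 90.1, 105 and 92.4 CPM in mutant libraries 1 to 3 (log2 fold change -0.16, SE 0.16). top2a, the DNA topoisomerase gene of dividing cells, stood at 15.8, 7.23 and 8.45 CPM in wild type and at 6.67, 11.7 and 10.3 CPM in mutant (-0.14, SE 0.32). mki67, the gene of the Ki-67 antigen, stood at 10.3, 6.57 and 5.82 CPM in wild type and at 5.83, 7.13 and 7.64 CPM in mutant (-0.14, SE 0.23). For top2a and mki67, wild type library 1 stood above the rest, and the other wild type libraries lay within or next to the mutant range.

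stmn1a, a microtubule-destabilizing stathmin gene (chromosome 19, 17300781 to 17306552), stood at 13.1, 5.63 and 3.94 CPM in wild type and at 1.91, 2.90 and 3.66 CPM in mutant. All wild type libraries lay above all mutant libraries, but wild type library 3 exceeded mutant library 3 by little. The log2 fold change was -1.44 (SE 0.49, edgeR adjusted p = 0.174), and it was -0.51 with wild type library 3 alone as wild type.

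Both roles had a median below that of all genes. The median log2 fold change was -0.85 over the 11 replication members, all tested, and -0.60 over the 15 tested of 18 mitosis members, beside -0.0087 over all tested genes. An unadjusted p under 0.05 in edgeR's test was reached by 6 of the 11 replication members, all lower. Of the 15 tested mitosis members it was reached by 2, 1 lower (cdc20) and 1 higher (cenpf). Over all tested genes the shares were 9.41% lower and 9.96% higher. Against wild type library 2, the mutant mean lay below in both roles, with a median difference of -0.57 on the log2(CPM + 0.5) scale in replication members and of -0.28 in mitosis members. Against wild type library 3 the medians were -0.014 and 0.18. Wild type library 1 exceeded wild type library 2 by a median of 0.24 in replication members and 0.76 in mitosis members on the same scale. Without mcm6, the replication members summed to 40.4, 32.9 and 20.6 CPM in wild type libraries 1 to 3 and to 15.5, 19.9 and 19.0 CPM in mutant libraries 1 to 3. The mitosis members summed to 50.9, 27.0 and 20.0 CPM in wild type and to 20.3, 26.3 and 27.0 CPM in mutant. The difference between the roles was not tested, since the members were chosen. Without wild type library 1 the mitosis median was 0.011 and the replication median was -0.46.

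In a list of 56 further replication genes, 33 were tested and edgeR called 0, beside 3.37% of all tested genes, with a median log2 fold change of -0.51. An unadjusted p under 0.05 was reached by 7, all lower, beside 9.41% of all tested genes. voom called 0, beside 2.93%, and DESeq2 called 2 (hells and slbp), beside 4.78%. Wild type library 1 was the highest of its group in 42 of the 54 genes of this list in the table, beside 36.8% of all tested genes. Its most abundant tested genes were the histone chaperone gene nasp, at 40.1, 23.7 and 5.82 CPM in wild type and 6.71, 7.13 and 4.64 CPM in mutant (-1.92, SE 0.75), and timeless, a fork protection gene (0.14, SE 0.16). gmnn, the gene of the licensing inhibitor geminin, had 183, 95 and 10 counts in wild type and 14, 9 and 10 in mutant (-2.92, SE 0.99, edgeR adjusted p = 0.207). Without wild type library 3, edgeR called 8 of 40 tested genes of this list, all lower, nasp and gmnn among them, beside 8.25% of all tested genes. Among the called genes, ccne1, cdc45 and pola2 were not tested with all libraries. They passed the count filter here through the wild type group, where they are high.

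In a list of 79 further mitosis genes, 42 were tested and edgeR, voom and DESeq2 called 0, beside 3.37%, 2.93% and 4.78% of all tested genes, with a median of -0.33. At an unadjusted p under 0.05, 2 were lower, beside 9.41%, and 1 was higher, beside 9.96%. Wild type library 1 was the highest of its group in 64 of the 71 in the table, beside 36.8% of all tested genes. hmgb2b (-0.21, SE 0.18) and the microtubule polymerase gene ckap5 (0.16, SE 0.17) were the most abundant. Of 18 genes of G1 entry, 13 were tested and the same tools called 0, beside the same shares, and 3 had an unadjusted p under 0.05, all lower, beside 9.41%. The highest wild type library was library 1 in 9 of the 16 in the table, beside 36.8% of all tested genes. mycb stood at -0.21 (SE 0.43) and cdk4 at -0.76 (SE 0.24, edgeR adjusted p = 0.104).

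In a list of 38 genes that restrain the cycle, 28 were tested and 1 was called, a share of 3.57% beside 3.37% of all tested genes. This was chek2, the gene of a DNA damage checkpoint kinase (chromosome 5, 9551342 to 9577606). It had 34, 32 and 20 counts in wild type libraries, beside 10, 7 and 7 in mutant libraries. The gene stood lower in the mutant, with a log2 fold change of -1.70 (SE 0.35, edgeR adjusted p = 0.0224). There was no overlap between groups, and wild type library 3 lay above every mutant library. chek2 passed the count filter through the wild type group, where it is high. The call ended without wild type library 2 or any 1 mutant library (edgeR adjusted p of 0.0903 to 0.124) and with wild type library 3 alone as wild type (edgeR adjusted p = 0.265). Its model overlaps gstt2 on the opposite strand. Here wild type library 1 was the highest of its group in 10 of 36 genes in the table, beside 36.8% of all tested genes.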

How the data were processed

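The deposited values are whole-number read counts per gene symbol for 6 bulk libraries, not normalized and not pooled by the authors; the 2 single-cell samples were not analysed here. Per the labels' protocols, Trizol was used for extraction and a stranded mRNA kit for the libraries. Aligner, counter and strand setting: not given in the sources used here. Cell Ranger and GRCz11 appear in the submitters' processing notes but are not tied to the table, which names no build, so positions are as it gives them. Gene model length in bases is the other column used from the deposited table.

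Counts were fitted in R 4.3.3 with edgeR 4.0.16 (filterByExpr at its defaults, minimum count 10, total 15, TMM factors of 0.882 to 1.13, robust glmQLFit, glmQLFTest, no covariate). Benjamini-Hochberg adjustment ran over all 14107 tested genes, and genes were called at an adjusted p under 0.05. The SE is the absolute log2 fold change over the square root of F. CPM uses TMM-scaled library sizes, and 0.5 CPM was added before taking log2 differences between libraries. Replicates of a group differed beyond sampling noise (chi-square per degree of freedom of 26.7 to 97.5). Alternatives were other scalings, filters, DESeq2 1.42.0, limma 3.58.1 voom, a length offset, a replicate block and leaving out libraries. Same-numbered libraries of the 2 genotypes did not deviate together (correlations of -0.06, 0.03 and 0.03). On simulated counts for this comparison (13781 genes, planted genes above 0.3 CPM), edgeR recovered 40% of 2-fold and 86% of 4-fold changes. Of 133 calls, 20 were false, a share of 15.0%, which is above the adjusted p threshold of 0.05. The simulation gave both genotypes the same dispersion per gene, whereas most members ranged wider in wild type, so these rates may not hold for the members.

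The members, roles and lists were chosen with earlier results of these data known. By rule the text gives called members, the most abundant of each role and those below the filter in full; the others given in full (ccne2, cenpf, stmn1a, rrm2, tyms, mcm2, mcm4, mcm5, aurka, cdk1, cdc20), and gmnn, hells, slbp and mcm6l, were picked after their values were seen. Marker genes given singly were not named by that rule. No sequences are shown, since no sequence table was used here.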

Additional observations from a re-analysis of the deposited data

How the results depend on the processing

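The number of genes called was 1161 without a filter (549 higher, 612 lower) and 304 with at least 50 counts in 3 libraries (127 lower); without 1 library at a time it ran from 115 to 1225 (50 to 572 higher, 65 to 653 lower). With wild type library 3 alone as wild type, a setting added after seeing the data, 137 genes were higher. Members called numbered 1 with library size only, 5 without a filter, 4 with DESeq2, 1 with wild type library 3 alone and 0 to 8 without 1 library at a time. The replicate block gave 377 genes and 0 members.

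Over all genes the share called was 4.59% without a filter, 4.78% with DESeq2 and 8.25% without wild type library 3. The replicate block called 377 of 14107 tested genes, and it tested 33 genes of the further replication list. The stricter filter called 304 of 8256 tested genes and left 15 genes of the list of brakes. The replication, mitosis, G1 and brakes lists had 54, 71, 16 and 36 genes tested without a filter. They had 40, 49, 14 and 28 tested without wild type library 3, where each list reached its highest count without 1 library. Calls in the further replication list numbered 1 without a filter, 2 with DESeq2, 2 with the replicate block and 0 to 8 without 1 library. In the mitosis list they numbered 3 without a filter and 0 to 2 without 1 library. In the G1 list they numbered 2 without a filter and 0 to 1 without 1 library. In the list of brakes they numbered 2 without a filter, 0 with the stricter filter and 0 to 2 without 1 library.

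The median log2 fold change of replication members was -0.24 with the stricter filter, which left 3 of them, and -0.0225 with wild type library 3 alone, and it ran from -1.13 to -0.46 without 1 library. That of mitosis members was 0.18 with wild type library 3 alone and ran from -0.89 to 0.0107 without 1 library. For the changes of scaling, tool and filter not named, both medians moved by less than the spread between replicates.

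With wild type library 3 alone the sign turned in mcm2 (0.53), mcm4 (0.14), mcm6 (-0.0023), tyms (0.56), aurka (2.28), aurkb (0.16), bub1 (1.59), bub1ba (0.98), cdk1 (0.47), cenpe (0.20), kif11 (0.0592), kif23 (0.084), plk1 (0.93), tpx2 (0.51), hmgb2a (0.0253), mki67 (0.22) and top2a (0.15). For bub1ba it also turned with voom (0.0989) and with the replicate block (0.0537). When libraries were left out singly, the fold change (log2) lay from -1.08 to 0.0509 in mcm2, from -2.40 to 0.0118 in aurka, from -0.96 to 0.0107 in bub1, from -0.30 to 0.57 in bub1ba, from -0.54 to 0.23 in cdk1, from -0.39 to 0.26 in cenpe, from -0.84 to 0.031 in kif11, from -1.27 to 0.20 in plk1, from -0.29 to 0.14 in mki67 and from -0.37 to 0.27 in top2a. In all 10 the highest of these values came without wild type library 1. The sign turned in 10 members without that library, in 3 without mutant library 1 and in 1 without mutant library 3. Except where the setting's own construction shows it (fewer genes or samples), the cause was not tested. The search for promoter motifs was not run. A count of 0 allowed up to 0.134 to 0.181 CPM, depending on the library.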
